A study of Mus musculus with 19 samples.

Results

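The genes described here are the 7 that encode the subunits of the NMDA-type glutamate receptor, Grin1, Grin2a, Grin2b, Grin2c, Grin2d, Grin3a and Grin3b. They were chosen by name, from the 24130 Ensembl genes that the 7 libraries list, with their levels and the high value of Grin2b in library A already known, so their levels are given as descriptions without a test. The primary somatosensory cortex (S1) of male C57BL/6 mice aged 56 days was cut into 6 segments from the pia to the white matter, and poly(A) RNA of each was sequenced. The most superficial library, A, held mostly layers 1 to 3, and the pair B1 and B2 mostly layer 4. C and D held mostly the upper and lower part of layer 5, E mostly layer 6 and F mostly layer 6b. The paper did not expect the segments to match single layers exactly, and layer names below stand for these segments. B1 and B2 pooled 4 mice each and are replicates from separate litters, and the other 5 libraries pooled 8 mice each with no replicate. By the study's methods all segments were cut from the same 8 mice, so the libraries share animals. No mouse was treated or genetically altered, and each pooled library gives 1 value for its segment.

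NMDA receptors are glutamate-gated channels that open only when glutamate and a co-agonist, glycine or D-serine, are bound and when depolarization has relieved a block by magnesium. GluN1, the product of Grin1, is obligatory and binds the co-agonist, whereas the GluN2 subunits, products of Grin2a to Grin2d, bind glutamate and set the speed of closing, the strength of the magnesium block and the link to the postsynaptic scaffold. In forebrain Grin2b is the early subunit and Grin2a is added as the cortex matures, while Grin2c is best known from cerebellar granule cells and glia and Grin2d from interneurons and the brainstem. GluN3 subunits, products of Grin3a and Grin3b, bind glycine and lower calcium permeability. GluN1 itself comes in splice forms that differ in an amino-terminal cassette (N1) and in the carboxy-terminal cassettes C1, C2 and C2′.

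Levels are FPKM, fragments per kilobase of transcript scaled to the mapped fragments of the library, so values of different genes are per length and can be set beside each other. Estimated from the deposited coverage, the libraries held about 31400000 to 75200000 fragments, with A the shallowest and B2 the deepest. Mitochondrial genes took 21.8% of the summed FPKM in A and 18.2% in B2, against 5.03% to 9.79% in the other 5. Of the layer markers, Cux1 and Cux2 summed to 62.3 to 81.6 FPKM in A, B1 and B2 and to at most 26.4 elsewhere, and the layer 6b markers Nxph4 and Cplx3 to 206 in F and at most 36.7 elsewhere. Fezf2, a layer 5 marker, was highest in C and D (26.0 and 22.5 FPKM), but Bcl11b, the other layer 5 marker, was highest in F (19.5). Of the layer 6 markers, Tbr1 had 41.8 FPKM in B1 against 30.4 in C and 73.5 in E. Foxp2 and Ntsr1, the other layer 6 markers, were lower in B1 (0.287 and 0.664) than in C (0.932 and 0.918) and E (13.2 and 5.51). A also had the highest sums of the meningeal list (12.4 FPKM against 1.53 to 2.53, with 3 of 4 markers highest in A and Lum highest in D) and of Hba-a1, a blood marker (272 against 12.97 to 24.6). F had the highest oligodendrocyte sum (11098 FPKM against 270.4 to 3663, with 4 of 4 markers highest in F). In tissue pieces of this kind, fewer cells of a type and less RNA per cell cannot be told apart. By the median of gene ratios, the typical gene was 0.43 higher on the log2 scale in F than in A, so a gene with equal FPKM in both lay below the typical gene's change.

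Grin1 was the most abundant subunit gene in every library. Its FPKM was 279.8 in A, 235 and 223 in the layer 4 replicates B1 and B2, 154 and 156 in C and D, 152 in E and 150.3 in F, and its mean of 193 stood above 99.3% of all listed genes. Grin2b came next with a mean of 43.5 FPKM over the 7 libraries. Grin2a (mean 10.1) and Grin2c (9.52) were close, with Grin2c the higher in A and F, as were Grin3a (3.78) and Grin2d (2.84), with Grin2d the higher in A and B1. Grin3b was lowest in every library, with a mean of 0.179. In the plot of the 7 genes by library, Grin2b had a single high library and Grin3a had its upper values in C and D. Grin2c and Grin2d had their upper values in A and B1. Those of Grin1 were in A, B1 and B2, with intervals in B1 and B2 too wide for a ranking.

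**Figure D1:**
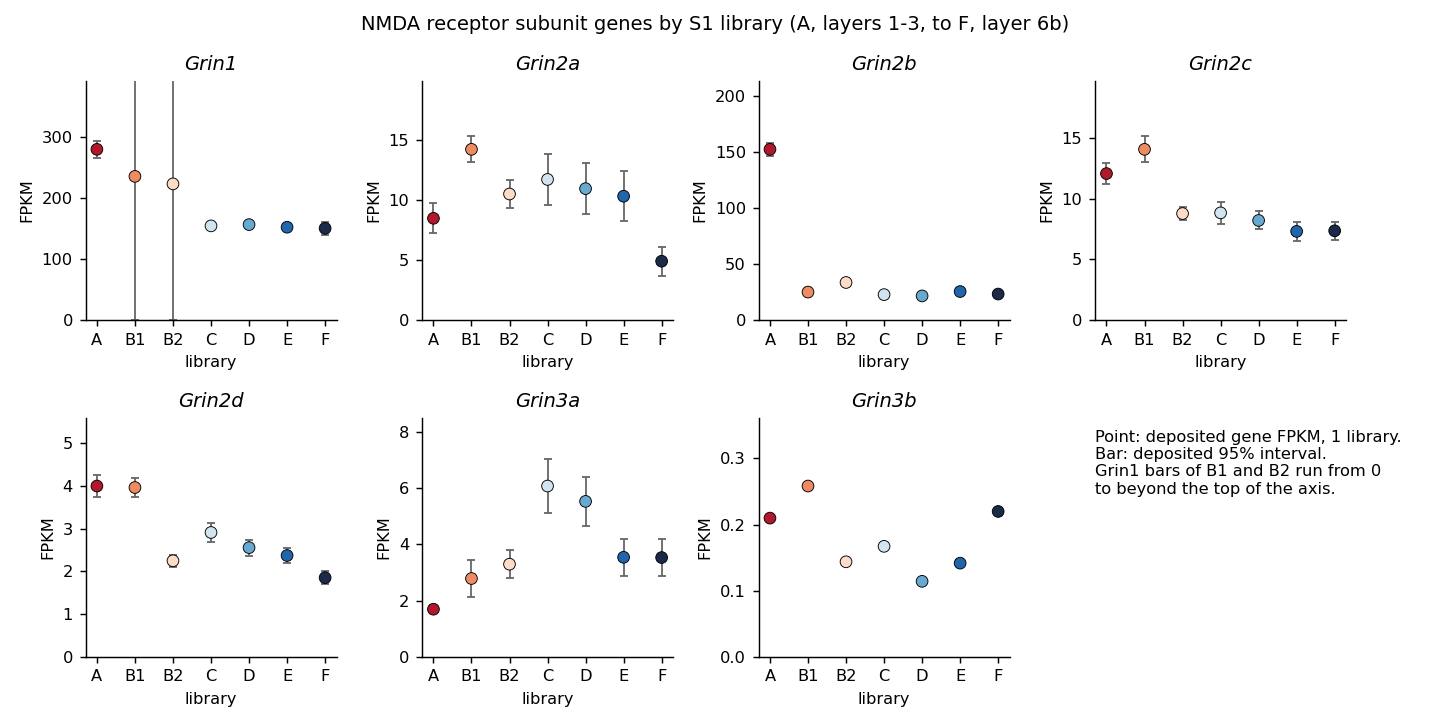
Deposited gene FPKM (y axis, linear) of the 7 NMDA receptor subunit genes in the 7 S1 libraries (x axis), with the deposited 95% interval as bars. Grin2b stood at 153 FPKM in A and between 21.6 and 33.6 elsewhere, and the Grin1 intervals of B1 and B2 reach from 0 beyond the axis.

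A gene was called different between 2 libraries when their deposited 95% intervals did not overlap and their log2 ratio, with 0.1 FPKM added, was above 1.27, the 95th percentile of the ratio between B1 and B2 over 17844 genes (a fold of 2.41). By this rule 1 of the 7 genes, Grin2b, was higher in A than in B1, where 11.9% of all genes tested were called higher in A. Grin2b was also the 1 gene higher in A than in B2 (7.50% of all genes), C (9.85%), D (10.2%), E (10.1%) and F (10.2%). Grin3a was the 1 gene lower in A than in C (14.2% of all genes) and D (15.7%). None was called lower in A than in B1 (7.61%), B2 (5.81%), E (17.7%) or F (19.6%). Apart from A, Grin2a was higher in B1 than in F (3.66% of all genes). It was not called between B2, the replicate of B1, and F, where the ratio was 2.14. These values were known when the genes were chosen, and nothing is read from the counts.

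Grin2b encodes GluN2B, the subunit that binds the kinase CaMKII most tightly. The gene lies on the minus strand of chromosome 6 (mm9 chr6:135679844-136123529, ENSMUSG00000030209) and spans 444 kb. Its FPKM was 153 in A (95% interval 147 to 158), 25.03 and 33.6 in the replicates B1 and B2, 22.8 and 21.6 in C and D, 25.5 in E and 23.3 in F. A was 4.54 times the next library, B2, and 7.07 times the lowest, D, while B2 was 1.34 times B1. The other 6 libraries ranged from 21.6 to 33.6 FPKM, and the neighbours E and B1, and F and C, had overlapping intervals.

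Most of the excess of gene FPKM in A was assigned to a short transcript model. In B1, B2, C, D, E and F the whole Grin2b value was given to Grin2b-202 (ENSMUST00000111905), a 7484-nt model with 15 exons that encodes the full subunit. In A this model had 45.5 FPKM (95% interval 44.7 to 46.4) and a second model, Grin2b-204 (ENSMUST00000143943), had 107 FPKM (103 to 111). Grin2b-204 is 703 nt long, has 4 exons at the 5′ end of the gene, and carries 106 coding bases of the 4446 in Grin2b-202. It was listed in A alone. All 703 of its bases are also exonic in Grin2b-202, and what sets it apart is its second exon of 73 nt, which starts further downstream than the 239-nt second exon of Grin2b-202. The junction from exon 1 to exon 2 is therefore a sequence that Grin2b-204 has and Grin2b-202 lacks. Reads in bases that only Grin2b-202 holds also tell the models apart. Single reads were not examined. Both are shown 5′ to 3′ from the reference transcripts (GRCm38, minus strand), 15 bases on each side, with exon 2 in capitals. The short model joins the ends of chr6:136172923-136173487 and the long model those of chr6:136173089-136173487.
Grin2b-204: cctcctgtgtgagagGAAAGAAAACGTCTC
Grin2b-202: cctcctgtgtgagagGAAATCTCGGGGCTT

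How much of Grin2b in A the short model held depends on what is counted. It took 70.2% of the gene's FPKM, which divides by length, but 18.1% of FPKM multiplied by model length, a quantity that follows sequenced bases, and it had 7.46% in the deposited fraction column, whose definition is not given in the sources used here. The gene FPKM of Grin2b is the sum over its models, so a short model weighs in it as much as a long one. When the FPKM of each model was weighted by its length and divided by the 7484 nt of the longest model, Grin2b in A was 55.6 FPKM, 1.65 times B2. With Grin2b-202 alone A was 1.36 times B2, close to the 1.34 between the replicates B2 and B1. On that scale A was 1.55 times the mean of B1 and B2 and 2.11 times D, the lowest library. Grin2b thus had its highest value in A on each of the 3 scales, with a margin between 1.36 and 4.54 times. A also had the shortest fragments (264 nt including both reads, against 272 to 339 nt), as well as the highest meningeal and blood marker sums given above, and the part of fragment length or of these cells in the Grin2b values was not tested.

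**Figure D2:**
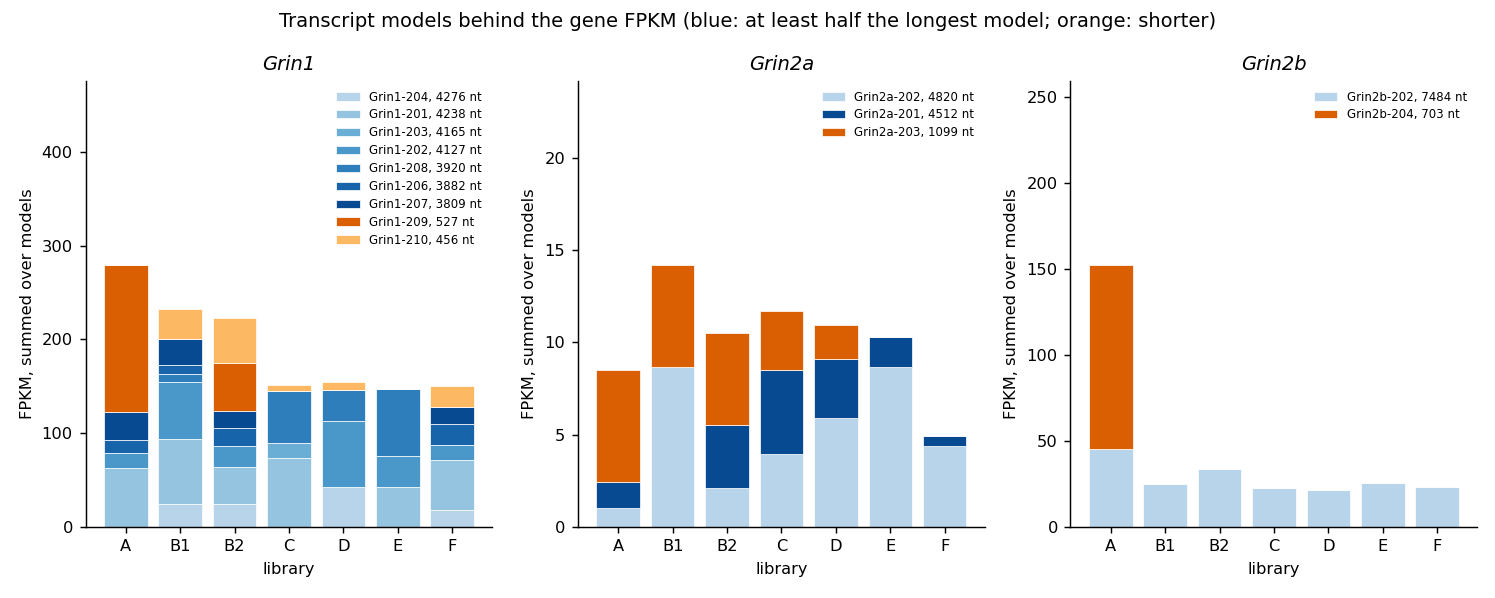
Stacked FPKM of each Ensembl transcript model (y axis) of Grin1, Grin2a and Grin2b in the 7 libraries (x axis); blues are models of at least 50% of the gene's longest model and oranges are shorter ones. In A the short models hold 157.5 of 279.8 FPKM for Grin1, 6.07 of 8.47 for Grin2a and 107 of 153 for Grin2b.

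The models that the authors assembled without annotation gave Grin2b an even larger value in A that rested on still fewer bases. The de novo locus covering the gene had 822 FPKM in A, of which 788 (95% interval 755 to 821) belonged to a single-exon model of 58 nt at mm9 chr6:136122335-136122392, 1137 bases inside the 5′ end of the gene. That model was listed in A alone and held 3.26% in the deposited fraction column. It lies within an exon of 1 of the 5 spliced de novo models of the gene. Spliced models of 23861 to 24061 nt were listed in the other 6 libraries with summed values of 23.3 FPKM and 28.6 in the replicates B1 and B2, 20.7 and 18.5 in C and D, 22.3 in E and 18.9 in F. No spliced de novo model of any length was listed inside the gene in A. Without the 58-nt model, the locus in A had 34.4 FPKM. The long spliced models differed by 1.54 times over the 6 libraries in which they were listed.

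Within the spans of the 3 longest subunit genes, single-exon de novo pieces were most numerous in A and B2. Inside the Grin2a span 200 such models were listed in A and 66 in B2, against 7 to 30 in the other 5 libraries. Inside Grin2b there were 43 in A, 27 in B2 and 9 to 19 elsewhere, and inside Grin3a 52, 32 and 3 to 9. The shorter Grin2d also had most in A and B2 (51 and 30, against 22 to 28 elsewhere). Grin2c had most in A (15), with 10 in both B2 and F. Inside Grin1, A and B2 (14 and 17) lay within the 9 to 20 of the other libraries, as they did inside Grin3b (7 and 8, within 4 to 10). Over all loci, single-exon models made up 90.2% of 429662 de novo models in A and 85.0% of 348391 in B2, against 75.4% to 79.0% elsewhere. The 2 libraries with most of these pieces were those with the highest mitochondrial shares, and the part of either in the levels of the subunit genes was not tested.

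Grin1 encodes the obligatory subunit GluN1 (ENSMUSG00000026959, minus strand, mm9 chr2:25146701-25174640). The deposited intervals of B1 (0 to 1874 FPKM) and B2 (0 to 1223) cover every other library, so Grin1 could not be ranked in layer 4. Outside layer 4, the interval of A (266 to 294) lay above those of C, D, E and F, whose values ranged from 150.3 to 156 and whose neighbours overlapped. As for Grin2b, much of the gene FPKM in A was assigned to a short model, Grin1-209 (ENSMUST00000127171), a 527-nt transcript annotated as non-coding. It had 157.5 FPKM in A and 51.5 in B2 and was listed in no other library. A 456-nt non-coding model, Grin1-210 (ENSMUST00000135426), had 32.0 and 48.2 FPKM in B1 and B2, 6.63 and 8.24 in C and D, and 22.3 in F. All bases of both are exonic in the full-length coding model. Summed over the full-length models alone, Grin1 had 122 FPKM in A, against 200.3 and 123 in the replicates B1 and B2, 145 and 146 in C and D, 147 in E and 128 in F. On the length-weighted scale A ranked 5 of 7, with 136 FPKM, and B1 was highest with 196. Among the libraries outside layer 4, A was thus highest by gene FPKM and lowest by full-length models. Reads of an antisense gene within the locus, Grin1os, cannot be told apart from those of Grin1 in libraries made without strand, and Grin1os was listed at 0.796 to 2.80 FPKM.

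The 7 full-length Grin1 models differ by whole coding cassettes, which change the receptor. N1 adds a loop to the extracellular amino-terminal domain, C1 carries a retention signal for the endoplasmic reticulum, and the choice between C2 and C2′ sets the end of the tail, C2′ ending in a sequence that binds PDZ domains. The coding stretches are shown here because all shares given next are shares of models that hold them. They are from the reference transcripts on the minus strand of chromosome 2 (GRCm38): N1 of 63 nt (chr2:25311343-25311405), C1 of 111 nt (chr2:25294438-25294548), the coding part of C2 of 114 nt (chr2:25292371-25292484) and that of C2′ of 66 nt (chr2:25292063-25292128). Each length is a multiple of 3, so skipping N1 or C1 keeps the reading frame.
N1: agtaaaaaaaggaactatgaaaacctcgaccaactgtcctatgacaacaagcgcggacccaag
C1: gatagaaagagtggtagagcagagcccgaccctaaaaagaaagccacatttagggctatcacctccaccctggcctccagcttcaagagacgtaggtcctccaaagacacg
C2: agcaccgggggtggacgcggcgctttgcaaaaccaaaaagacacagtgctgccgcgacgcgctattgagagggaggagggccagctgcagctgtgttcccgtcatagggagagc
C2′: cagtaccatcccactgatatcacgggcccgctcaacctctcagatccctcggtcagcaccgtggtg

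N1-containing models held 23.9% of the full-length Grin1 FPKM in A, 30.1% and 33.6% in the layer 4 replicates B1 and B2, 49.5% and 51.7% in C and D, 48.8% in E and 28.6% in F. The share was thus 48.8% to 51.7% in the layer 5 and 6 libraries C, D and E and at most 33.6% in A, the layer 4 pair and F. The gap was 15.2 points between B2 and E and 3.42 points between B1 and B2. C1-containing models held 62.4% in A, 55.8% and 67.6% in the layer 4 replicates B1 and B2, 88.6% and 51.7% in C and D, 77.3% in E and 73.4% in F. B1 and B2 differed by 11.7 points in C1, and the adjacent layer 5 libraries C and D by 37.0 points. C2-containing models held 51.2% (E) to 77.4% (D), with 6.96 points between B1 and B2. Only 3 of the 7 models were listed in C, D and E, 4 in A, 5 in B2 and F and 6 in B1, and every model interval in B1 and B2 started at 0. The gaps between B1 and B2 are therefore no sure measure of the replicate spread. With 1 library per segment outside layer 4, the differences in share carry no test.

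**Figure D3:**
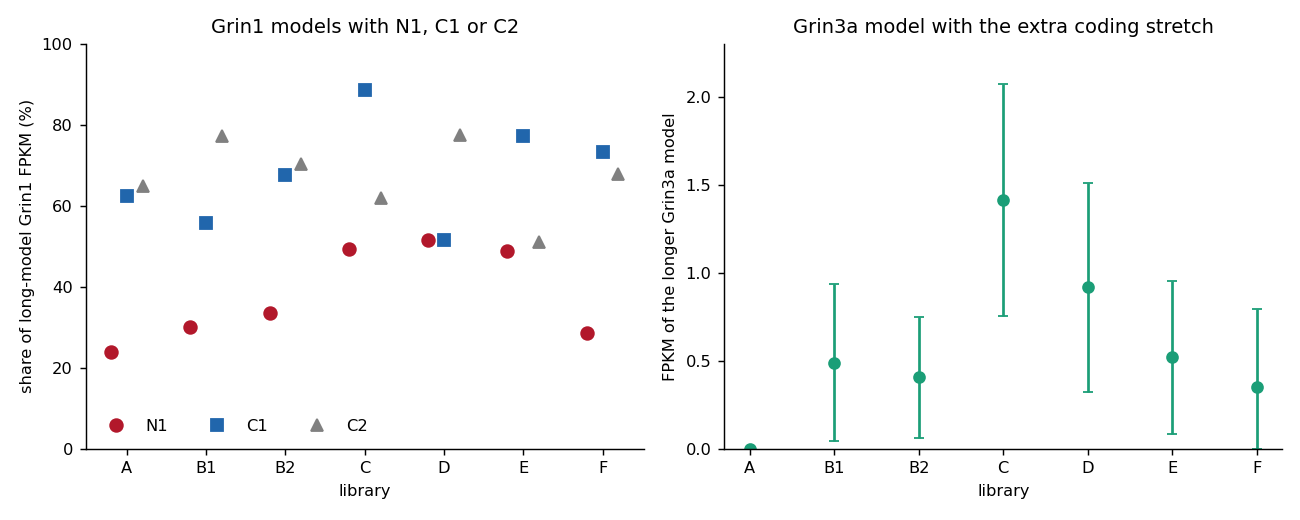
Left, share of the full-length Grin1 FPKM (y axis, percent) in models that hold cassette N1, C1 or C2, by library; right, FPKM of the Grin3a model with an extra coding stretch, with the deposited 95% interval as bars (not listed in A, drawn at 0). N1 stood at 48.8% to 51.7% in C, D and E and at 23.9% to 33.6% in the other libraries.

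Grin2a encodes GluN2A, the main partner of GluN1 at mature cortical synapses (ENSMUSG00000059003, minus strand, mm9 chr16:9577803-9995014). Its gene FPKM was 8.47 in A, 14.2 and 10.5 in the layer 4 replicates B1 and B2, 11.7 and 10.9 in C and D, 10.3 in E and 4.90 in F. From B1 down to A each library's interval overlapped that of the next, and F alone lay apart, 1.73 times below A. F was also the library with the highest oligodendrocyte sum, whose part in its low Grin2a value was not tested. Here too most of the gene FPKM in A was assigned to a short model, Grin2a-203 (ENSMUST00000156482), of 1099 nt in the files and annotated as a retained intron, of which 58.1% of the reference bases are exonic in the coding model. By FPKM times length this short model held 37.4% of Grin2a in A. It had 6.07 FPKM in A, 5.55 and 5.00 in the replicates B1 and B2, 3.22 in C and 1.86 in D, and was not listed in E or F. The coding models Grin2a-201 and Grin2a-202, whose 12 coding segments are identical in the reference, together had 2.40 FPKM in A, 8.66 and 5.50 in the layer 4 replicates B1 and B2, 8.48 and 9.08 in C and D, 10.3 in E and 4.90 in F. On that scale A was lowest and E highest, 4.29 times A, while B1 was 1.58 times B2. Length-weighted, A was also lowest and E highest, 2.76 times A, while B1 was 1.55 times B2. Of the FPKM of the 2 coding models, Grin2a-202 held all 8.66 in B1, where Grin2a-201 was not listed, but 2.10 of 5.50 in its replicate B2. It held 1.01 of 2.40 in A and 4.37 of 4.90 in F. The split between the 2 coding models changes no coding base.

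By FPKM, short models thus held most of the value of A for 3 of 5 subunit genes. These 5 have more than 1 model, a longest model of at least 3000 nt and a mean of at least 1 FPKM. Among all such genes, 21.3% took over 50% of their FPKM from models shorter than 50% of the longest in A, against 11.8% and 12.3% in the replicates B1 and B2, 11.4% and 10.8% in C and D, 10.9% in E and 13.2% in F. Grin2b-204, Grin1-209 and Grin2a-203 were looked at because the value of Grin2b in A was known, so no share is read from the 3. Highest in A were 3 of the 7 subunit genes by deposited FPKM (Grin1, Grin2b and Grin2d), where 24.4% of all genes were, and 2 on the length-weighted scale (Grin2b and Grin2d), where 22.3% were.

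**Figure D4:**
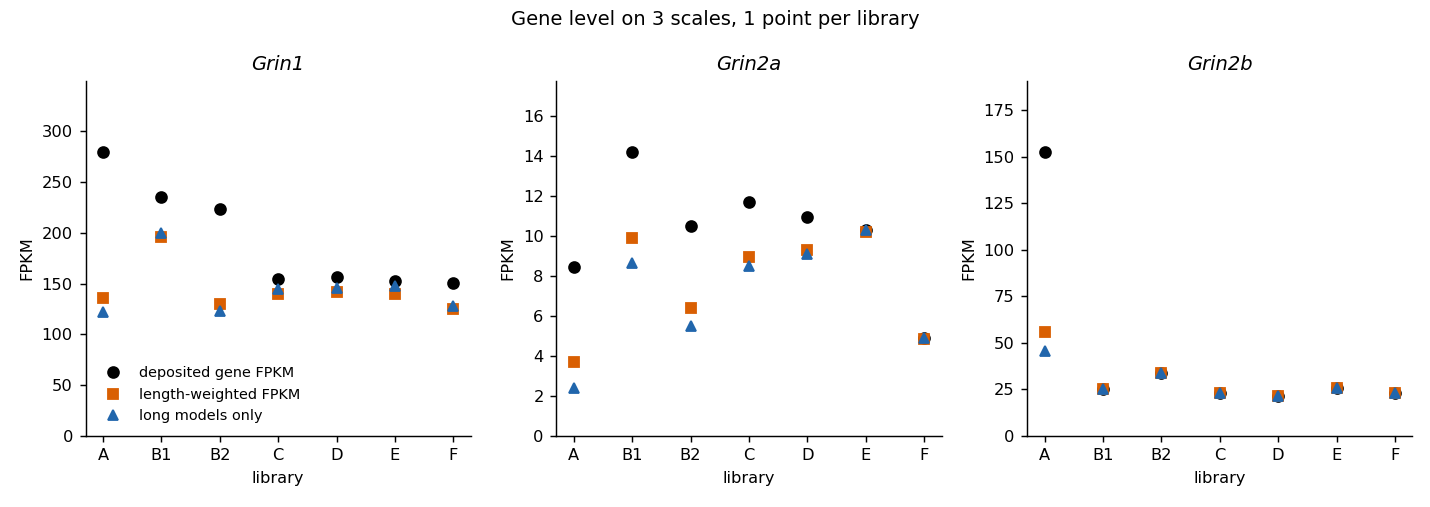
Level of Grin1, Grin2a and Grin2b in the 7 libraries (x axis) as deposited gene FPKM (black), length-weighted FPKM (orange) and FPKM of the long models alone (blue), all on a linear y axis in FPKM. For Grin1, A was highest by the deposited value (279.8) and at the low end by the long models (122, next to 123 in B2), and for Grin2b it stayed highest at 153, 55.6 and 45.5.

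Grin2c encodes GluN2C, which gives receptors with a weak magnesium block (ENSMUSG00000020734, minus strand, mm9 chr11:115110483-115128557). Its FPKM was 12.1 in A, 14.1 and 8.78 in the layer 4 replicates B1 and B2, 8.83 and 8.21 in C and D, 7.31 in E and 7.36 in F. B1 and A lay above the other 5 libraries, whose neighbouring intervals overlapped, but B1 was 1.60 times its own replicate B2, and that gap is nearly as large as the 1.93 between the highest and lowest libraries. Grin2c-201 held 74.5% to 87.0% of the FPKM and Grin2c-202 the rest.

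Grin2d encodes GluN2D, the subunit with the slowest closing (ENSMUSG00000002771, minus strand, mm9 chr7:53087253-53122499), and had a single model. Its FPKM was 4.00 in A, 3.97 and 2.25 in the layer 4 replicates B1 and B2, 2.91 and 2.56 in C and D, 2.37 in E and 1.85 in F. A and B1 had overlapping intervals and F was lowest, 2.16 times below A. B1 was 1.76 times B2, so the layer 4 pair covered most of the range of the gene. The ratio of A to F was under the replicate-based limit on the deposited scale and above it after division by median-of-ratios size factors, where Grin1 and Grin2d joined Grin2b as higher in A than in F.

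Grin3a encodes GluN3A (ENSMUSG00000039579, minus strand, mm9 chr4:49674483-49858421). Its FPKM was 1.69 in A (95% interval 1.55 to 1.84), 2.79 in B1, 3.30 in B2, 6.08 in C (5.11 to 7.05), 5.53 in D (4.66 to 6.41), 3.54 in E and 3.53 in F. The layer 5 libraries C and D stood above all others with overlapping intervals between them, E, F, B2 and B1 followed without a gap between neighbours, and A lay apart below B1. C was 3.59 times A, against 1.18 times between B2 and B1, and its models are 7431 and 7491 nt long, so no short model entered this order. The summed pan-neuronal list was also lowest in A, at 1081 FPKM against 1814 to 2472, as were 3 of its 4 markers, while Rbfox3 was highest in A (337), and its part in the low Grin3a value was not tested. The summed interneuron list was highest in D at 514 and lowest in A at 276, but of its 5 markers Gad2 and Sst were highest in D and Gad1 and Gad2 lowest in A.

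A longer Grin3a model, Grin3a-202, holds 60 extra coding bases at the start of the last exon (GRCm38 chr4:49665566-49665625, minus strand), shown because they are the only difference in coding sequence between the listed models.
Grin3a-202 insert: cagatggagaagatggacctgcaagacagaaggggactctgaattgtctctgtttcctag
This model had 0.490 FPKM and 0.405 in the replicates B1 and B2, 1.41 and 0.917 in C and D, 0.519 in E and 0.354 in F and was not listed in A. Its share of Grin3a ran from 10.01% in F to 23.2% in C. The intervals were wide, from 0.753 to 2.07 FPKM in C and from 0 to 0.796 in F, and those of B2 (upper bound 0.7496 FPKM) and C did not overlap, whereas those of B1 and C, C and D, D and E, and E and F did.

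Grin3b, the gene of GluN3B (ENSMUSG00000035745, plus strand, mm9 chr10:79433460-79439935), was near the floor of the data. Its FPKM was 0.210 in A, 0.258 and 0.144 in the layer 4 replicates B1 and B2, 0.167 and 0.114 in C and D, 0.142 in E and 0.220 in F. These values correspond to an estimated 8 (D) to 41 (B1) fragments, for which an exact Poisson 95% interval, covering counting error only, is 63.9% to 154% of the value wide. The deposited intervals were 0.660% to 1.93% wide, narrower than counting error allows. For Grin2d, with an estimated 497 (F) to 1011 (B1) fragments, they were also narrower than the Poisson interval in every library. In A they were 12.8% wide against 15.4%, so overlap of deposited intervals can understate the uncertainty there too. For Grin3b, B1 was 1.80 times B2, and no order of the segments was detectable at this depth. The gene shares 73 bases at its edge with Tmem259, which had 30.8 to 56.8 FPKM.

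The balance of the GluN2 subunits was compared within each library, where a scale common to all genes cancels. Grin2b held 86.1% of the summed Grin2 FPKM in A, 43.7% and 61.0% in the layer 4 replicates B1 and B2, 49.3% and 49.9% in C and D, 56.1% in E and 62.3% in F. On the length-weighted scale these shares were 75.1%, 48.5%, 67.1%, 53.4%, 52.9%, 57.1% and 63.6%. A remained highest on that scale, at 75.1% against 48.5% to 67.1% in the other 6 libraries. Its gap to B2, the next library, was 8.01 points, which is less than the 18.6 points between B1 and B2. Grin2a held 4.99% of the length-weighted sum in A and 12.8% to 22.8% in the other libraries. The ratio of Grin2b to Grin2a was 18.02 in A by deposited FPKM and 15.0 by length-weighted FPKM, against 1.76 to 4.75 and 2.32 to 5.23 in the other 6 libraries, and with long models alone it was 18.9 in A against 2.38 to 6.11. The ratio was therefore highest in A on each of the 3 scales, while its components shifted: by deposited FPKM Grin2a in A ranked 6 of 7, and with long models Grin2b in A was 1.36 times B2. After A, the ratio was highest in B2 and F on the length-weighted scale (5.23 and 4.78) and lay between 2.32 and 2.55 in B1, C, D and E. Grin1 was 1.84 times the Grin2 sum in A on the length-weighted scale, 2.59 times in B2 and 3.13 to 3.80 times in the others.

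**Figure D5:**
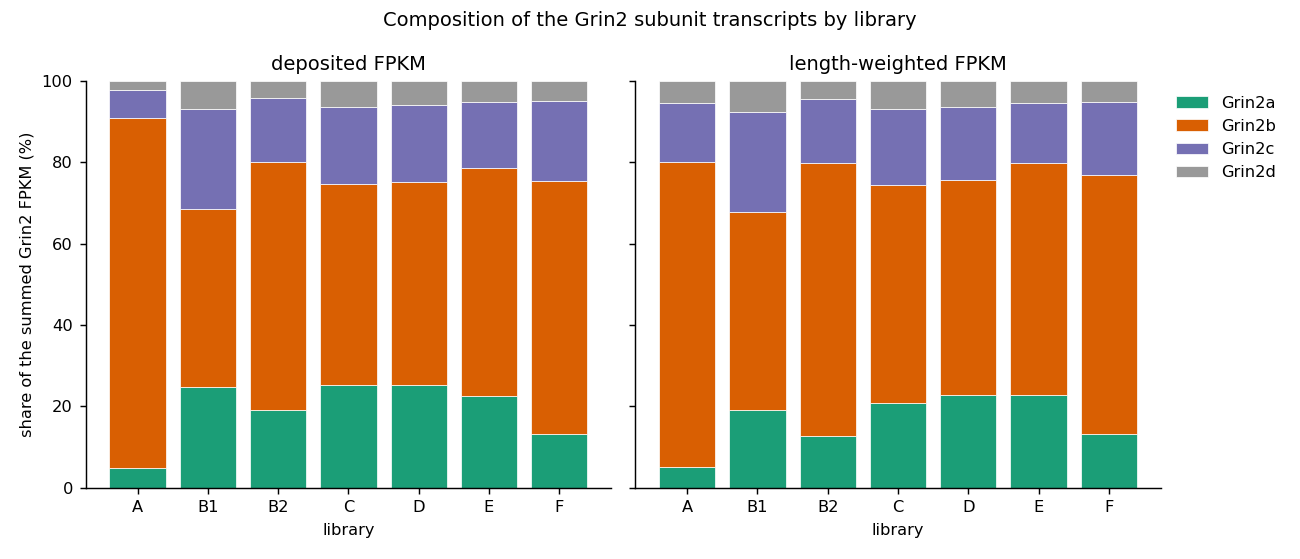
Share of each Grin2 gene in the summed Grin2 FPKM (y axis, percent) by library (x axis), from deposited gene FPKM (left) and length-weighted FPKM (right). In A Grin2b holds 86.1% (left) and 75.1% (right) and Grin2a 4.78% and 4.99%.

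The layer 4 replicates differed by subunit. By deposited FPKM 5 genes were higher in B1 than in B2: Grin3b by 1.80 times (63.4% G or C in its main transcript), Grin2d by 1.76 (65.0%), Grin2c by 1.60 (61.1%), Grin2a by 1.35 (52.3%) and Grin1 by 1.06 (59.7%). Grin2b (51.4%) and Grin3a (49.2%) were 1.34 and 1.18 times higher in B2. The deposited Grin1 intervals start at 0 in both replicates, and length-weighted Grin1 was 1.51 times higher in B1. Across 10456 genes with narrow intervals, transcript GC content and the log2 of B2 over B1 had a Spearman correlation of -0.553, given as a description across genes of 2 libraries. The part of base composition in the differences between segments was not tested.

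For each gene with a mean of at least 1 FPKM, the genes with the most similar profile were found by summing the absolute differences in their shares over the 7 libraries, in percentage points, among 10143 or 10144 genes with narrow intervals. For Grin2b they were Gm10076 (5.62 points), Gm8129 (6.83) and Rps26 (8.22), whose longest models are 388, 213 and 434 nt long. Rps26 had 55.7 FPKM in A and 6.49 to 11.9 elsewhere. For Grin2a they were Camkk2 (4.02 points), a kinase activated by calcium and calmodulin, Inka2 (5.70) and Dab2ip (7.09), and Camkk2 had 66.1 FPKM in A, 112 and 86.5 in the layer 4 replicates B1 and B2, 91.5 and 90.2 in C and D, 88.3 in E and 46.3 in F. For Grin3a they were Utrn, the gene of utrophin (6.32 points), Glrx (6.52) and Vstm2b (6.92), all with their lowest value in A. Chst1 (4.34), Tie1 (4.86) and Rabl6 (4.96) were nearest to Grin1, Tmub1 (3.16), B3gat3 (3.99) and Tmem250-ps (4.09) to Grin2c, and Rnf208 (6.83), Adgrb1 (6.90) and Kctd17 (7.17) to Grin2d. The median distance of a gene was 79.8 points from Grin2b and 29.2 to 36.0 points from the other 5.

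The partners of the receptor were followed across depth with a list of 49 genes, grouped as scaffold proteins, trafficking factors, signalling enzymes, co-agonist metabolism and glutamate handling. The slope of log2(FPKM + 0.1) on segment position was tested with limma over 13164 genes, with Benjamini-Hochberg adjustment and 5 residual degrees of freedom. The test treats the 7 libraries as independent, although the segments came from the same mice. Of the 48 tested, 3 fell (2.73% of all genes) and 6 rose (17.0% of all genes) from A to F. Their median slope was 0.04 per segment on the log2 scale, beside 0.09 over all genes.

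Among signalling genes 2 of 14 fell and 1 rose. Rasgrf2, a calcium-regulated activator of Ras, had the steepest fall, from 39.9 FPKM in A, 49.7 in B1 and 49.3 in B2 to 16.0 and 10.7 in C and D, 10.8 in E and 7.11 in F (slope -0.60 ± 0.10 SE, limma adjusted p = 0.00718). The 3 upper libraries were all above the 4 deep ones. Camk2a, the alpha subunit of CaMKII, also fell, from 857 to 1091 FPKM in A, B1 and B2 to 420.2 in F (slope -0.25 ± 0.05 SE, limma adjusted p = 0.0158). Fyn, a tyrosine kinase that phosphorylates GluN2 tails, rose from 25.6 FPKM in A to 64.7 in F (slope 0.20 ± 0.05 SE, limma adjusted p = 0.0376).

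Among trafficking genes 1 of 10 rose and 1 fell. Neto1, an auxiliary protein of kainate receptors that also associates with NMDA receptors, rose from 5.51 FPKM in A, 7.18 in B1 and 8.23 in B2 to 16.5 and 24.4 in C and D, 31.9 in E and 24.2 in F (slope 0.51 ± 0.09 SE, limma adjusted p = 0.00845). Lin7b, part of the complex that carries Grin2b-containing vesicles, fell from 71.9 FPKM in A to 36.3 in F (slope -0.18 ± 0.05 SE, limma adjusted p = 0.0359).

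Of the 12 scaffold genes, 1 rose and none fell. Dlg1, which encodes SAP97, rose from 18.6 FPKM in A to 57.5 in F (slope 0.27 ± 0.07 SE, limma adjusted p = 0.0309), while Dlg4, which encodes PSD-95, had a slope of -0.07 ± 0.06 SE. Of 5 co-agonist genes tested 2 rose and none fell, Slc6a9, the glycine transporter GlyT1, most steeply, from 6.81 FPKM in A to 36.6 in F (slope 0.39 ± 0.08 SE, limma adjusted p = 0.0147), and Psph, the phosphatase of serine synthesis. Both, like Fyn and Dlg1, had their highest value in F, where the oligodendrocyte (4 of 4 markers) and astrocyte (3 of 4) markers were also highest, and the part of glial RNA in these slopes was not tested. Of 7 glutamate-handling genes 1 rose, Slc17a7, the vesicular transporter VGLUT1 (slope 0.17 ± 0.05 SE, limma adjusted p = 0.0436). Slc17a7 too had its highest value in F (799 FPKM), whereas Neto1 was highest in E (31.9). Rasgrf2 and Neto1 kept their calls when any of A, B1, B2 or F was left out. Without F the calls of Dlg1 (slope 0.32), Lin7b (-0.17), Fyn (0.17), Slc6a9 (0.28) and Slc17a7 (0.19) were lost, with slopes that kept their direction. Camk2a also lost its call without F. With no filter on low values, Camk2a, Fyn, Slc17a7 and Psph lost their calls. Without A the calls of Lin7b, Fyn and Slc17a7 were lost, and without B2 those of the same genes and of Psph. After division by median-of-ratios size factors Dlg1 (slope 0.18), Fyn (0.11), Slc17a7 (0.09) and Psph lost their calls, and 2 partners rose in place of 6.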

How the data were processed

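RNA of 7 S1 libraries was sequenced as paired ends, of which 50 nt per end were mapped (75 nt in part of F). Per the submitters' processing notes reads were aligned with TopHat 1.0.13 to mm9, and Cufflinks 0.8.3 gave the deposited FPKM of Ensembl and de novo genes and transcripts with 95% intervals. The transcript files also hold a deposited fraction, the authors' coverage per transcript and, in the models' file, a deposited score, which was not used. The other 12 samples of the series were not analysed here. The genes and lists were chosen with earlier results of these data known.

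Symbols came from GENCODE M21 (22021 of 24130 gene identifiers matched) and exon coordinates from GRCm38, while gene coordinates are those of the files. Of 46931 transcript identifiers, 39564 were matched, and unmatched ones are in no model sum. The matched Grin1 models held 147 of 152 FPKM in E. Gene FPKM was used as deposited, with 0.1 added before log2, a mean of at least 0.1 for folds and 1 for slopes. Genes with narrow intervals are those whose widest interval is at most 50% of the mean. Length-weighted FPKM is the sum of FPKM times model length, over the gene's longest listed model, and fragments were estimated as coverage times length over 100 bases. Trends were fitted with limma 3.58.1 (R 4.3.3), and both rules were tested on simulated data. Named were all 7 subunit genes, per partner group the steepest fall and rise past the test (Camk2a, Psph and Dlg4 were added after their values were seen), the 3 most similar genes, and models with at least 5% of a gene's FPKM. Of 50 cell type markers, 47 were matched. Pseudocounts, filters, scales, fold limits and left-out libraries were varied.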

Additional observations from a re-analysis of the deposited data

How the results depend on the processing

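No paired analysis was possible because the segments share fewer than 2 replicate numbers: all came from the same 8 mice, but outside layer 4 the mice were pooled into 1 library. Depth is limiting for Grin3b and for isoform splits, and the replicate spread comes from layer 4 alone. Length weighting, long models and the deposited fraction were added after the data were seen. Under the alternatives, 211 values kept their call, stayed within the replicate spread where there was no test or, for counts, within 1.5 times of the main count. Another 35 moved further and 19 slopes lost their call. Reversal was looked for only in the slopes of the steepest fall and rise per partner group, and none of those reversed. The 211 include values from summed Ensembl transcripts, which nearly repeat the gene FPKM.

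With no fold limit, the subunit genes higher in A than in B2 numbered 4 and than in C, D, E and F 5 each, and those lower in A numbered 4 against B1, 1 each against B2 and E, and 2 against F, counts that include Grin3b by its narrow deposited intervals. Against F, 3 were higher in A with median-of-ratios size factors, 2 with a pseudocount of 1 FPKM and 2 with a 2-fold limit, which also called 1 lower in A than in E and 1 than in F. Among genes with narrow intervals 0 were lower in A than in C or D, since Grin3a is not among them. The Grin2b ratio of A to the next library was 4.54 without B replicate 1, 5.98 without B replicate 2, 13.5 over de novo loci on its strand, 1.36 with long models, 1.65 length-weighted and 1.84 length-weighted with size factors. The Grin2b share of the Grin2 sum in A was 71.1% with long models. Over de novo models on its strand, the 58-nt model held 79.6% of Grin2b in A. Among Ensembl models in A, Grin2b-204 held 18.1% by FPKM times length and 7.46% by the deposited fraction. Grin2b-202 held 81.9% and 92.5% on these 2 measures.

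Falling partners numbered 5 with size factors, 6 without A and 1 without F. Rising ones numbered 2 with size factors, 2 with mitochondrial genes left out of the sum, 3 with no filter on low values, 3 without B replicate 2 (7 without B replicate 1) and 2 without F. With a quadratic term, 20 partners past the joint test of both terms had a positive linear term and 6 a negative one. The sign of that term alone does not give a rise or fall from A to F, so these are not counts of rising and falling partners. Without B replicate 1 and 2, the falling ones numbered 3 and 2. Dlg1, Fyn, Slc17a7 and Psph also lost their calls with mitochondrial genes left out. The cause was not tested.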
